A study of Mus musculus with 9 samples.

Results

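Chemically induced cardiomyocyte-like cells were compared with the mouse embryonic fibroblasts they are made from, over all genes of the array. The comparison used 6 of the series' 9 arrays, the 3 labelled CiCM and the 3 labelled MEF, chosen by their titles and by no measured value. The MEF were fibroblasts taken from C57BL/6 mouse embryos at embryonic day 13.5. The CiCM were such fibroblasts after culture with 10 µM CHIR99021, an inhibitor of the kinase GSK3, 10 µM RepSox, which blocks the kinase of TGF-beta receptors, 50 µM Forskolin, an activator of adenylyl cyclase, 0.5 mM VPA, an inhibitor of histone deacetylases, 5 µM Parnate, an inhibitor of monoamine oxidases and of the histone demethylase LSD1, and 1 µM TTNPB, an agonist of retinoic acid receptors. Beating clusters were picked at day 24, so the CiCM arrays describe selected clusters and not whole dishes. The labels give no culture time for the MEF, so the cocktail, the days in culture and the picking cannot be told apart. The other 3 arrays, of cardiomyocytes (CM) isolated from mouse heart, entered the shared estimate of spread and are given as a side value. The 3 samples of a group are labelled biological replicates.

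Signals were log2 values, so that a difference of 1 is a 2-fold change, and every difference below is CiCM minus MEF with its standard error (SE). Arrays of a group resembled each other, with a mean correlation over genes of 0.973 among MEF and 0.967 among CiCM, against 0.769 between MEF and CiCM. Per gene, the SD within a group had a median of 0.108 for MEF and 0.164 for CiCM. A signal under 6.58, the median of the table, is dim, and a log2 difference from a dim group is loosely fixed, so the difference after adding 32 to the linear signals is given beside it.

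The CiCM label was checked against markers. Of 15 cardiomyocyte markers 8 rose, among them Tnnt2 by 6.90, Actc1 by 6.51 and Myl2 by 8.46 (7.35 with 32 added), while Myh6, the adult atrial and ventricular myosin of the mouse, reached only 6.75, 7.998 and 6.64 on the CiCM arrays against 15.41, 15.94 and 15.79 on the CM arrays. All 18 skeletal muscle markers rose, with a median difference of 8.81, among them the myogenic factors Myod1 by 5.90 (4.28 with 32 added) and Myog by 8.56 (6.62 with 32 added). The 15 cardiomyocyte markers had a median difference of 1.71, or 0.84 with 32 added. Whether the risen ones were read from cardiac or from skeletal muscle cells was not tested. The summed linear signal of the 15 cardiomyocyte markers was 794.5 to 1043 in MEF, 47490 to 48290 in CiCM and 390700 to 439800 in CM. That of the 18 skeletal markers was 1184 to 1388, 250500 to 281400 and 31050 to 37580. The data thus go against a purely cardiac reading of the label, and the cells are called CiCM below as a name only. The MEF label was borne out by fibroblast markers, with a summed signal of 151400 to 153300 in MEF and 133100 to 139400 in CiCM, but all 13 macrophage and blood cell markers were also present in MEF and fell, with a median difference of -2.32. Their summed signal was 35200 to 38460 in MEF, 5488 to 8699 in CiCM and 16830 to 25130 in CM. In such mixed samples fewer cells of a type and less RNA per cell cannot be told apart.

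Cells speak to each other through secreted ligands that bind receptors on the surface, and the signal ends in kinases, second messengers and transcription factors that set which genes are read. Fibroblasts are rich in growth factors, matrix enzymes and the enzymes of dividing cells. Striated muscle that has left the cell cycle is known for oxygen storage, high-energy phosphate and purine turnover, and fuel uptake through its own carriers.

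Over 12559 tested genes, 23.8% were called, at a Benjamini-Hochberg adjusted p under 0.05 in limma and a log2 difference of at least 1. Called higher in CiCM were 1451 genes, or 11.6%, and called lower were 1536, or 12.2%. Of the higher genes 664 were dim in MEF, and of the lower genes 551 were dim in CiCM. The higher side reached further, with 167 genes at a difference of at least 5, or 99 with 32 added, against 27 lower genes at that size, or 3 with 32 added. Levelling the arrays on the 18 hybridisation control probe sets moved every difference by -0.23 and the share of higher genes among the calls from 48.6% to 35.4%. On all 3 CM arrays, 195 of the higher and 205 of the lower genes were dim. The median difference of all tested genes was -0.03. The CiCM and MEF arrays did not overlap in 68.5% of all tested genes, and in 2972 of the 2987 called ones. Genes named by rule were taken only from those without overlap, so its absence adds no support to them.

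The families read here held 1082 distinct tested genes in 33 lists outside the muscle genes. Of 189 tested genes for secreted factors and their modulators, 43 rose and 34 fell, which is 40.7% called. These include the Wnt and activin receptors listed with their ligands, and members of the FGF family that stay inside the cell. In the receptor lists 20 of 167 were higher and 39 lower. Transcription factors were nearly even, with 41 of 249 higher and 43 lower. Among 367 metabolic genes 53 rose and 71 fell, and among 110 regulators of cyclic nucleotide, MAPK and PI3K signalling 22 rose and 22 fell. The shares called in these groups, 33.7% to 40.7%, all lay above the 23.8% of all tested genes. The lists were chosen with earlier results of these data known, so the higher shares are no independent result about the families.

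**Figure D1:**
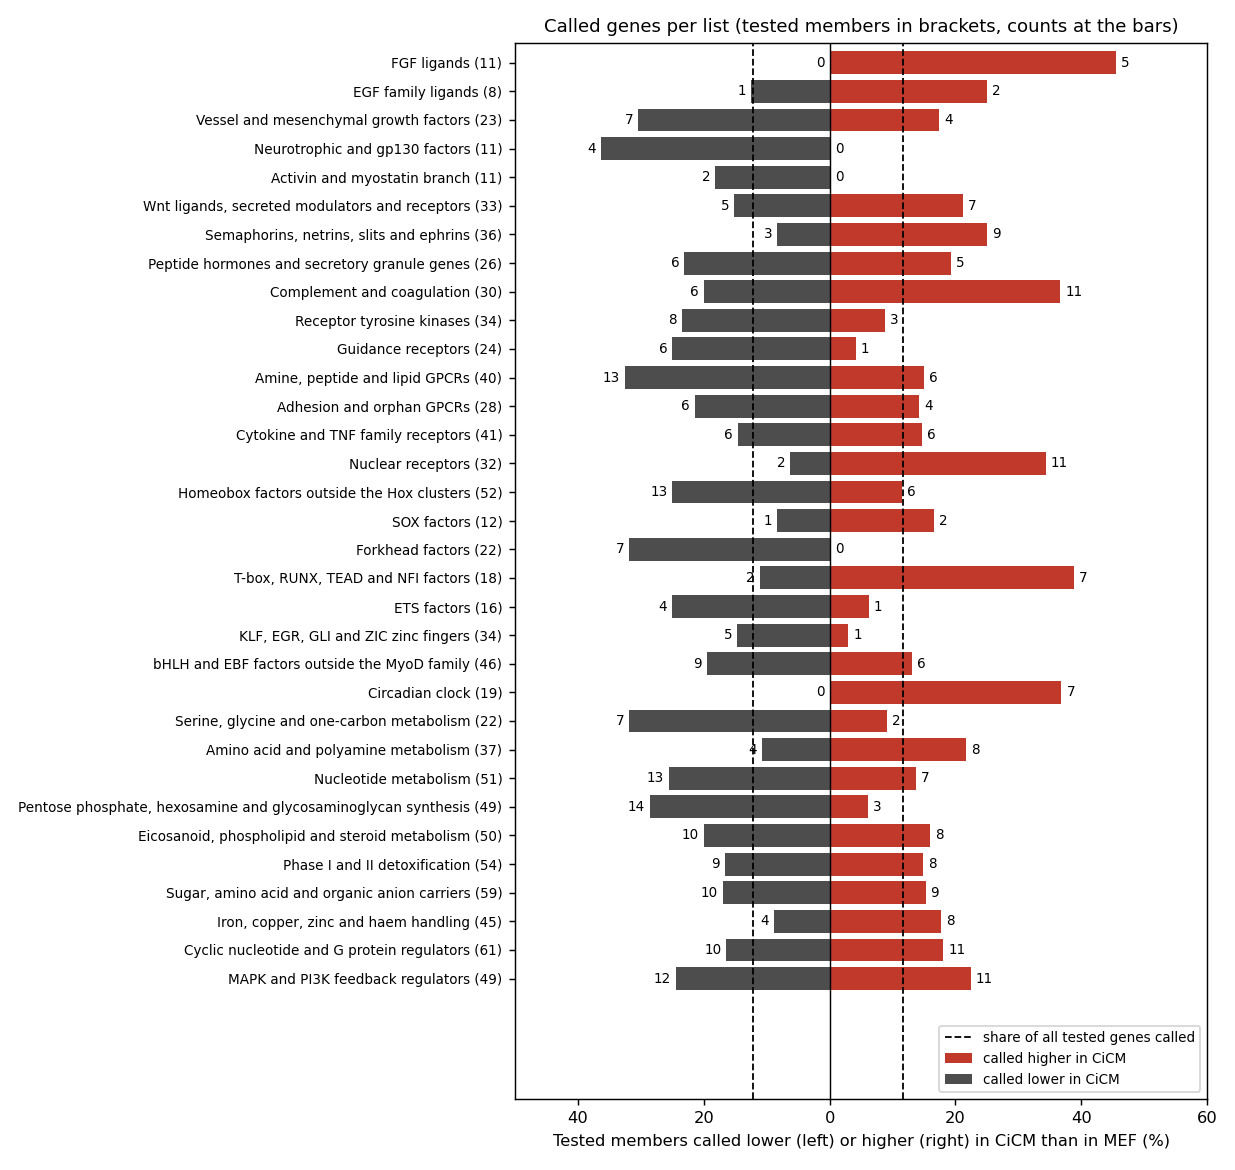
Percentage of the tested members of 33 gene lists called higher (red, right) or lower (grey, left) in CiCM than in MEF, with counts at the bars and tested members in brackets. The dashed lines mark the shares of all tested genes, 11.6% higher and 12.2% lower. FGF ligands, complement and coagulation, nuclear receptors, T-box to NFI factors and clock genes reached furthest to the right, and neurotrophic factors, GPCRs, forkhead factors and serine and 1-carbon enzymes furthest to the left.

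Of 11 tested genes of the FGF family 5 were higher, 0 lower and 6 not called, with a median of 1.44, against -0.03 over all tested genes. With the hybridisation control levelling, or with the arrays centred on their medians, 1 member was called lower. Fgf21, a secreted hormone of metabolic stress, was at 8.17, 7.54 and 7.93 on the MEF arrays and 10.64, 10.05 and 10.11 on the CiCM arrays. Every CiCM array lay above every MEF array, and the difference was 2.39 ± 0.42 (adjusted p = 0.000833). The gene was dim on the 3 CM arrays, at 2.61, 4.32 and 2.89. Fgf9, a ligand for FGF receptors in mesenchyme, was at 7.14, 7.30 and 7.28 on the MEF arrays and 9.40, 9.10 and 9.16 on the CiCM arrays, without overlap, and rose by 1.98 ± 0.21 (adjusted p = 2.33e-05). Fgf1 rose by 1.82 ± 0.16 (adjusted p = 4.96e-06; 1.34 with 32 added). The other 2 members belong to the FGF homologous factors, which stay inside the cell and bind sodium channels. Fgf11 stood at 5.93, 5.55 and 5.95 on the MEF arrays and 9.37, 9.28 and 9.93 on the CiCM arrays and rose by 3.72 ± 0.28 (adjusted p = 2.04e-06; 3.13 with 32 added), again without overlap. Fgf13 rose by 1.44 ± 0.14 (adjusted p = 1.11e-05). On the receptor side Fgfr3 rose by 1.70 ± 0.16 (adjusted p = 7.88e-06) and Fgfrl1, an FGF receptor without a kinase domain, rose from 9.87, 10.00 and 9.90 to 12.37, 12.42 and 12.67, a difference of 2.56 ± 0.13 (adjusted p = 9.39e-08), while Fgfr1 differed by -0.58 and was not called.

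In the EGF family 2 of 8 tested members rose and 1 fell. Egf itself was dim in MEF, at 5.60, 5.96 and 6.47, and reached 8.94, 9.11 and 9.24 in CiCM, a difference of 3.08 ± 0.26 (adjusted p = 4.03e-06; 2.57 with 32 added). Hbegf, a heparin-binding ligand of the same receptors, moved the other way, from 10.47, 10.55 and 10.55 to 8.40, 8.53 and 8.80, a difference of -1.95 ± 0.22 (adjusted p = 3.5e-05). Neither gene overlapped between the groups. Epgn, a further ligand, differed by 1.77 ± 0.52 (adjusted p = 0.0151; 1.18 with 32 added), and the call was lost without MEF replicate 1 or CiCM replicate 2, at adjusted p-values of 0.0527 to 0.0544. Of the receptors, Erbb3, which signals together with other ERBB proteins, rose by 1.80 ± 0.14 (adjusted p = 2.95e-06), or by 0.51 and without a call when its probe sets were averaged, while Egfr differed by -0.20 and Erbb2 by -0.29, neither called. No further probe set of Erbb3 was past the line.

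Vessel and mesenchymal growth factors split, with 4 of 23 higher and 7 lower. The angiopoietins Angpt4 and Angpt1, ligands of the endothelial receptor Tek, both rose. Angpt4 was at 6.24, 6.22 and 6.30 on the MEF arrays and 9.81, 10.19 and 10.23 on the CiCM arrays, with no overlap and a difference of 3.82 ± 0.42 (adjusted p = 2.9e-05; 3.36 with 32 added), and was dim on every CM array, at 5.14, 6.03 and 4.08. Angpt1 rose by 1.98 ± 0.37 (adjusted p = 0.0012), and Tek itself was dim in both groups. Kitl, the ligand of the receptor Kit, rose by 1.86 ± 0.15 (adjusted p = 2.73e-06). The VEGF relatives fell, Pgf by -2.56 ± 0.61 (adjusted p = 0.00512; -1.83 with 32 added) and Vegfc by -1.49 ± 0.23 (adjusted p = 0.000391), and so did their receptors. Flt1, which binds Vegfa and Pgf, stood at 10.88, 10.84 and 10.77 on the MEF arrays and 7.12, 7.18 and 7.65 on the CiCM arrays, did not overlap and differed by -3.51 ± 0.20 (adjusted p = 2.25e-07). Flt4, the receptor of Vegfc, differed by -1.16 ± 0.22 (adjusted p = 0.0012; -0.91 with 32 added), whereas Vegfa differed by -0.30 without a call. Pdgfc, a mesenchymal mitogen, differed by -1.38. Tnfrsf11b, a secreted decoy of the RANK ligand, differed by -2.30 ± 0.88 (adjusted p = 0.0496), and leaving out any 1 of the 6 arrays ended the call, at adjusted p-values of 0.0798 to 0.146. Its SD in MEF, CiCM and CM was 0.17, 0.56 and 2.31, and the call held in a fit of only the CiCM and MEF arrays.

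Csf1, the growth factor on which macrophages depend, and its receptor Csf1r fell together. Csf1 was at 12.22, 12.18 and 12.11 on the MEF arrays and 10.25, 9.99 and 10.14 on the CiCM arrays, with a difference of -2.05 ± 0.14 (adjusted p = 1.2e-06), and Csf1r at 11.45, 11.57 and 11.41 on the MEF arrays and 9.17, 9.42 and 8.92 on the CiCM arrays, with -2.31 ± 0.12 (adjusted p = 1.57e-07). Neither overlapped. Csf1r is itself among the 13 macrophage and blood cell markers that fell, as given above, and the part of those cells in either result was not tested.

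Another pair that fell was pleiotrophin (Ptn), a heparin-binding growth factor of developing tissue, and the receptor phosphatase Ptprz1 to which it binds. Ptn was at 13.09, 13.20 and 13.16 on the MEF arrays and 10.96, 10.19 and 9.59 on the CiCM arrays, a difference of -2.90 ± 0.53 (adjusted p = 0.000991). Ptprz1 was at 11.71, 11.57 and 11.71 on the MEF arrays and 7.22, 6.13 and 6.85 on the CiCM arrays, a difference of -4.93 ± 0.27 (adjusted p = 1.8e-07), among the 12 largest losses outside the lists. No CiCM array reached a MEF array for either gene. The other called neurotrophic and gp130 factors fell too, so that 4 of 11 tested members were lower and 0 higher. They were Il6, at 10.78, 10.78 and 10.75 on the MEF arrays and 8.65, 8.26 and 7.30 on the CiCM arrays and -2.70 ± 0.51 (adjusted p = 0.0012), Bdnf, which supports neurons, at -1.66, and the cytokine Clcf1 at -1.98 (-1.46 with 32 added). Lifr, the receptor chain for LIF and related cytokines, rose by 1.74 ± 0.10 (adjusted p = 2.69e-07), while Il6st, the gp130 chain that Il6 also needs, differed by -0.94 and was not called.

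In the activin branch 2 of 11 tested members fell and 0 rose, 18.2% called, below the 23.8% of all tested genes. Inhba, the subunit of activin A, was at 12.32, 12.12 and 12.17 on the MEF arrays and 9.66, 9.73 and 9.98 on the CiCM arrays, without overlap, and differed by -2.41 ± 0.17 (adjusted p = 1.45e-06), but by -1.16 and without a call when its probe sets were averaged. No further probe set of Inhba was past the line. Acvr2b, an activin receptor, was dim in both groups, at 6.48, 5.57 and 6.74 on the MEF arrays and 4.94, 5.52 and 3.18 on the CiCM arrays, was tested only because the CM arrays lay above the line, and differed by -1.72 ± 0.61 (adjusted p = 0.0355; -0.92 with 32 added); that call was lost without MEF replicate 1, MEF replicate 3 or CiCM replicate 3, at adjusted p-values of 0.0953 to 0.116.

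Wnt ligands, modulators and receptors were called in both directions, 7 of 33 higher and 5 lower, and the balance turned to 5 higher and 6 lower with the hybridisation control levelling. The secreted Wnt antagonists Sfrp1 and Sfrp2 rose. Sfrp1 was at 10.59, 10.65 and 10.53 on the MEF arrays and 12.51, 12.99 and 13.03 on the CiCM arrays, a difference of 2.25 ± 0.21 (adjusted p = 8.52e-06) without overlap, and Sfrp2 rose by 1.74 ± 0.33 (adjusted p = 0.00128). Fzd9, a Wnt receptor, was dim on the MEF arrays at 4.83, 4.19 and 3.42 and reached 8.20, 7.77 and 8.22, a difference of 3.92 ± 0.42 (adjusted p = 2.54e-05; 2.57 with 32 added). Fzd1 rose by 1.41, and Fzd5 and the co-receptors Ror1 and Ryk differed by -1.26, -1.21 and -1.07, all 3 called. Dkk2, another antagonist, was at 10.16, 10.10 and 10.23 on the MEF arrays and 8.18, 7.94 and 7.97 on the CiCM arrays and differed by -2.13 ± 0.81 (adjusted p = 0.047), a call that ended on leaving out any 1 of the 6 arrays, at adjusted p-values of 0.0899 to 0.106. Rspo3, an enhancer of Wnt signalling, differed by -1.26 ± 0.47 (adjusted p = 0.0436) and behaved alike, at 0.0825 to 0.112. Its other probe sets, none of them past the line, turned the difference to 0.19 when all were averaged. The SD in MEF, CiCM and CM was 0.065, 0.13 and 2.18 for Dkk2 and 0.12, 0.13 and 1.18 for Rspo3. Both calls held in a fit of only the CiCM and MEF arrays.

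Among axon guidance cues, which also steer vessels and migrating cells, 9 of 36 rose and 3 fell. Slit1, a ligand of ROBO receptors, was at 4.84, 2.63 and 5.79 on the MEF arrays and 8.71, 8.20 and 7.82 on the CiCM arrays and differed by 3.82 ± 0.71 (adjusted p = 0.00116; 2.52 with 32 added). Rgma, a ligand of neogenin, was at 7.05, 6.91 and 7.03 on the MEF arrays and 8.85, 9.18 and 9.49 on the CiCM arrays and differed by 2.18 ± 0.23 (adjusted p = 2.59e-05). Draxin, a secreted inhibitor of axon growth, rose by 2.38 ± 0.44 (adjusted p = 0.00115; 1.81 with 32 added). The class 3 semaphorins were divided, with Sema3b at 1.81, Sema3c at 1.59 and Sema3d at 1.86 (1.51 with 32 added), but Sema3e at -2.07 ± 0.39 (adjusted p = 0.00132). The Sema3d call ended without MEF replicate 2 or 3 or CiCM replicate 1 or 3, at adjusted p-values of 0.063 to 0.0662. Sema7a, a membrane-anchored semaphorin, was at 8.33, 8.03 and 8.22 on the MEF arrays and 4.80, 6.66 and 6.24 on the CiCM arrays and differed by -2.29 ± 0.41 (adjusted p = 0.00091; -1.77 with 32 added). The receptors of this system leaned down, 1 of 24 higher and 6 lower. Plxna2, a semaphorin co-receptor, rose by 1.63 ± 0.21 (adjusted p = 0.0001), while Plxna1 and Plxna3 differed by -1.12 and -1.18. Epha3 and Epha4, receptors of ephrins, differed by -2.73 ± 0.64 (adjusted p = 0.00459) and -2.18 ± 0.36 (adjusted p = 0.000542). Unc5b, a netrin receptor, was at 10.82, 10.89 and 10.83 on the MEF arrays and 8.81, 8.78 and 8.67 on the CiCM arrays, without overlap, a difference of -2.09 ± 0.11 (adjusted p = 1.91e-07).

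Of 26 peptide hormone and secretory granule genes 5 rose and 6 fell. Fndc5, the precursor of the muscle hormone irisin, was dim on every MEF array, at 1.69, 5.14 and 3.84, stood at 10.36, 10.43 and 10.69 in CiCM and at 12.02, 12.15 and 12.23 in CM. Its difference was 6.94 ± 0.64 (adjusted p = 8.74e-06; 4.94 with 32 added). Nppc, which encodes C-type natriuretic peptide, was at 2.58, 2.78 and 4.52 on the MEF arrays and 8.24, 7.90 and 8.18 on the CiCM arrays and differed by 4.82 ± 0.63 (adjusted p = 0.000102; 2.83 with 32 added), whereas Npr2, the guanylyl cyclase that binds it, differed by -1.15 ± 0.15 (adjusted p = 9.65e-05). Angiotensinogen (Agt) rose by 3.53 ± 0.50 (adjusted p = 0.0002; 2.599 with 32 added) and the receptor Agtr2 changed by -2.24 ± 0.31 (adjusted p = 0.000171; -1.83 with 32 added). Npr2, Agt and Agtr2 were named after their values were seen, so no pattern of ligand against receptor is drawn from them. Metrnl, a secreted factor of muscle and fat, was at 10.93, 11.00 and 10.84 on the MEF arrays and 8.58, 8.78 and 8.63 on the CiCM arrays, without overlap, and differed by -2.26 ± 0.12 (adjusted p = 1.34e-07), and its relative Metrn by -1.14. Averaging probe sets ended both calls, at -1.11 and -0.46, while the 1 further Metrnl probe set past the line read -1.12. Vgf, a granule protein of neurons and endocrine cells, differed by -3.99 ± 0.93 (adjusted p = 0.0047; -1.82 with 32 added), from 6.76, 6.76 and 6.65 in MEF, close to the line, to 2.27, 2.50 and 3.44.

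Complement and coagulation had the largest called share of the 33 lists, 56.7% of 30 tested genes, with 11 higher and 6 lower and a median of 0.65. The complement genes that were called all rose. Cfi, the protease that inactivates C3b, was at 5.41, 5.58 and 6.10 on the MEF arrays and 9.36, 9.86 and 10.24 on the CiCM arrays and differed by 4.12 ± 0.37 (adjusted p = 6.59e-06; 3.48 with 32 added). Masp1, a protease of the lectin pathway, was at 8.84, 8.86 and 8.86 on the MEF arrays and 11.92, 12.16 and 12.25 on the CiCM arrays and differed by 3.25 ± 0.12 (adjusted p = 1.37e-08). Serping1, the inhibitor of C1, was at 10.77, 10.81 and 10.76 on the MEF arrays and 13.52, 13.53 and 13.57 on the CiCM arrays, with 2.76 ± 0.21 (adjusted p = 2.18e-06). C1s1 rose by 2.52, C1ra by 1.396 and Cfb by 1.02; the Cfb difference fell under 1 without MEF replicate 1 or 2 or CiCM replicate 2, to between 0.932 and 0.995. Thus proteases and their inhibitors were called in the same direction. Of the coagulation genes F2, which encodes prothrombin, was dim in MEF at 5.00, 4.63 and 5.47 and stood at 9.28, 9.39 and 9.21 in CiCM, a difference of 4.26 ± 0.35 (adjusted p = 3.41e-06; 3.33 with 32 added), and its receptor F2r differed by -1.19 ± 0.14 (adjusted p = 5.52e-05). Tfpi2, a protease inhibitor laid down in matrix, was at 11.08, 11.28 and 11.21 on the MEF arrays and 7.57, 7.18 and 6.53 on the CiCM arrays and differed by -4.09 ± 0.28 (adjusted p = 9.62e-07). F13a1, a transglutaminase of clots that macrophages also express, was at 9.58, 9.66 and 9.79 on the MEF arrays and 7.07, 6.40 and 5.56 on the CiCM arrays and differed by -3.33 ± 0.30 (adjusted p = 6.46e-06; -2.88 with 32 added), beside the fall of the macrophage markers, whose part was not tested. Tissue factor (F3) differed by -1.26.

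**Figure D2:**
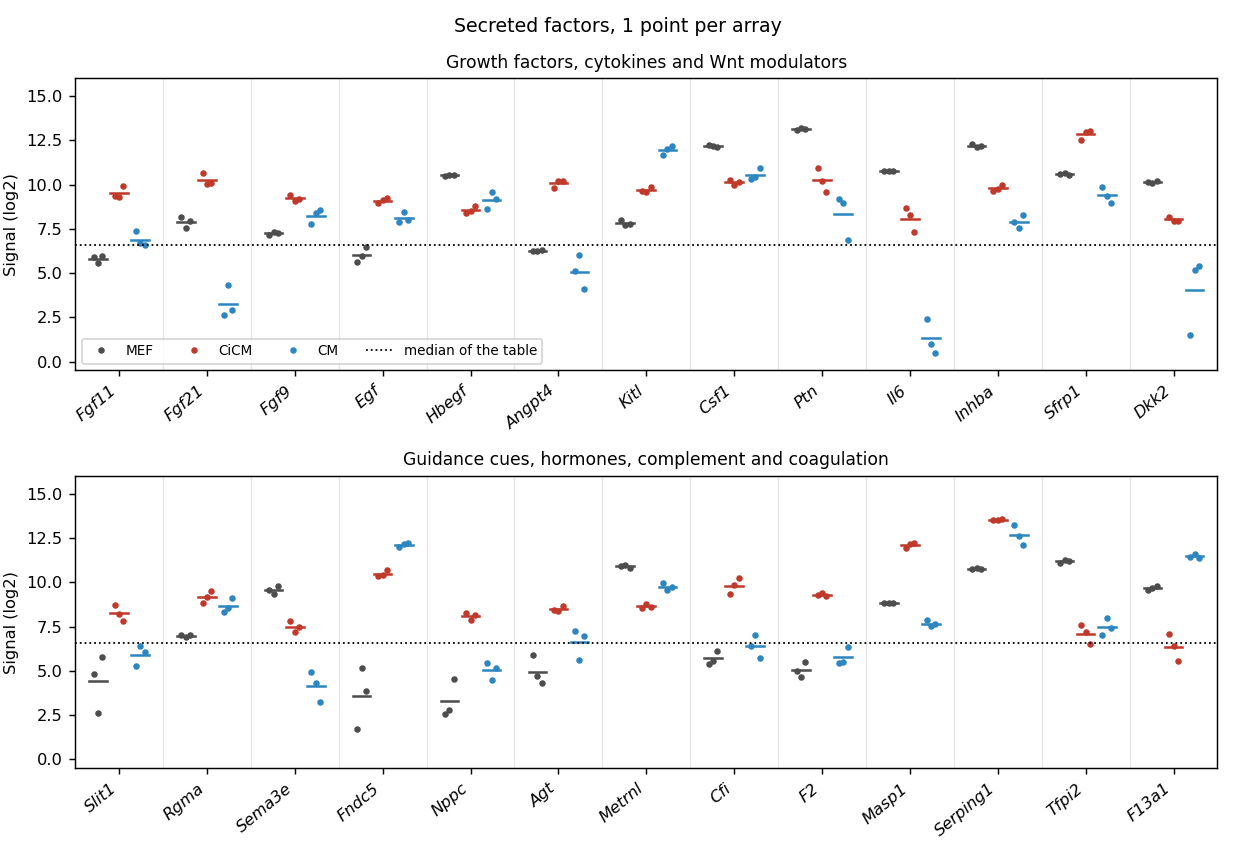
Log2 signal of secreted factors on each MEF (grey), CiCM (red) and CM (blue) array, with the group mean as a short line and the median of the table, 6.58, dotted. Fgf11 is drawn as a member of the FGF list but stays inside the cell. Levels are not comparable between genes. The red and grey points of each gene do not overlap, which held for 68.5% of all tested genes. Fndc5 rose by 6.94 and Tfpi2 differed by -4.09.

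Receptor tyrosine kinases leaned down, 3 of 34 higher and 8 lower, with a median of -0.35. Besides Fgfrl1, Fgfr3 and Erbb3, no member was called higher. Axl, the receptor of the growth factor Gas6, was at 12.69, 12.58 and 12.64 on the MEF arrays and 10.54, 10.34 and 10.11 on the CiCM arrays, without overlap, and differed by -2.30 ± 0.14 (adjusted p = 5.02e-07), but by -0.74 and without a call when its probe sets were averaged. No further probe set of Axl was past the line. Ret, the GDNF receptor, and its co-receptor Gfra1 were both called lower, with differences of -2.596 ± 0.50 (adjusted p = 0.00138; -1.36 with 32 added) and -1.64 ± 0.27 (adjusted p = 0.000486). Ret was dim in both groups, tested only through the CM arrays, and its call ended when its probe sets were averaged, at -1.29. Ntrk3, the receptor of neurotrophin 3, differed by -1.61 ± 0.39 (adjusted p = 0.00595; -1.09 with 32 added).

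G protein-coupled receptors for amines, peptides and lipids were the receptor list with the most losses, 6 of 40 higher and 13 lower, and 3 and 15 with the hybridisation control levelling. Lpar4, a receptor of lysophosphatidic acid, was at 10.21, 9.93 and 10.14 on the MEF arrays and 7.49, 6.57 and 6.86 on the CiCM arrays and differed by -3.12 ± 0.28 (adjusted p = 7.94e-06), while Lpar1, of the same ligand, rose by 1.46 ± 0.12 (adjusted p = 4.78e-06). Of the prostanoid receptors 3 fell: Ptger2, for prostaglandin E2, differed by -3.42 ± 0.81 (adjusted p = 0.00509; -1.87 with 32 added), Ptgir, for prostacyclin, by -2.32 ± 0.62 (adjusted p = 0.00938; -1.43 with 32 added), and Tbxa2r, for thromboxane, by -2.37 ± 0.23 (adjusted p = 1.19e-05; -2.01 with 32 added), whereas Ptger4 differed by 0.47 and was not called. S1pr2 differed by -1.95 ± 0.26 (adjusted p = 0.00011). P2ry6 and P2ry12, nucleotide receptors that macrophages also carry, differed by -2.56 and -1.52 (-0.93 with 32 added). P2ry12 was dim in both groups and tested only through the CM arrays. Rxfp1, the relaxin receptor, was at 4.74, 3.98 and 2.19 on the MEF arrays and 7.21, 7.70 and 7.97 on the CiCM arrays and rose by 3.99 ± 1.00 (adjusted p = 0.00684; 2.30 with 32 added). The serotonin receptors went both ways. Htr2b rose by 3.04 ± 1.12 (adjusted p = 0.0426; 1.67 with 32 added), and Htr1b, at 11.65, 11.63 and 11.63 on the MEF arrays and 8.82, 8.95 and 8.85 on the CiCM arrays, differed by -2.76 ± 0.87 (adjusted p = 0.021). The Htr1b call ended on leaving out any 1 of the 6 arrays, at adjusted p-values of 0.0516 to 0.0558, and that of Htr2b on leaving out any except MEF replicate 1, at 0.085 to 0.138. The SD of Htr1b in MEF, CiCM and CM was 0.011, 0.065 and 2.37, and its call held in a fit of only the CiCM and MEF arrays.

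Adhesion and orphan receptors counted 4 of 28 higher and 6 lower. Gprc5c and Gprc5b, orphan receptors induced by retinoic acid in other cells, both rose. Gprc5c was at 6.79, 6.13 and 6.29 on the MEF arrays and 10.44, 10.42 and 10.62 on the CiCM arrays and differed by 4.09 ± 0.23 (adjusted p = 2.33e-07; 3.65 with 32 added), against 6.09, 5.63 and 5.81 on the CM arrays, and Gprc5b was at 8.59, 8.59 and 8.49 on the MEF arrays and 10.77, 10.73 and 10.95 on the CiCM arrays and differed by 2.26 ± 0.25 (adjusted p = 3.5e-05). Adgrg2 was at 7.90, 8.33 and 8.23 on the MEF arrays and 5.41, 2.71 and 2.97 on the CiCM arrays and differed by -4.46 ± 0.68 (adjusted p = 0.000323; -2.71 with 32 added). Adgrf5, an adhesion receptor of endothelium, differed by -1.98 ± 0.12 (adjusted p = 3.74e-07) and was highest on the CM arrays, at 12.52, 12.47 and 12.74.

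Cytokine and TNF family receptors were even, 6 of 41 in each direction. Of the TNF receptor relatives 3 rose, Tnfrsf9 by 3.79 ± 0.63 (adjusted p = 0.000576; 2.85 with 32 added), the death receptor Tnfrsf21 by 2.58 ± 0.21 (adjusted p = 3.04e-06) and Eda2r, a receptor of ectodysplasin, by 2.11 ± 0.19 (adjusted p = 7.83e-06). Il15ra, which presents the muscle cytokine interleukin 15, rose by 1.58 ± 0.13 (adjusted p = 4.81e-06). Il1rl2, the receptor of interleukin 36, was at 9.59, 9.75 and 9.66 on the MEF arrays and 6.96, 6.49 and 6.48 on the CiCM arrays and differed by -3.02 ± 0.19 (adjusted p = 4.76e-07). Csf2rb, a chain of the GM-CSF receptor of myeloid cells, differed by -2.24 ± 0.23 (adjusted p = 1.96e-05), in the same samples in which the macrophage markers fell, and the part of those cells was not tested.

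Feedback regulators of MAPK and PI3K signalling counted 11 of 49 higher and 12 lower, or 9 and 17 with the hybridisation control levelling. Dusp6, the phosphatase that acts on ERK, was at 11.58, 11.57 and 11.53 on the MEF arrays and 8.09, 7.87 and 7.56 on the CiCM arrays, with no overlap, and differed by -3.72 ± 0.14 (adjusted p = 1.39e-08). The related phosphatases Dusp4 and Dusp5 differed by -2.51 ± 0.63 (adjusted p = 0.00718) and -2.75 ± 0.41 (adjusted p = 0.000269; -2.05 with 32 added). Spry1, a receptor kinase antagonist, was at 11.55, 11.75 and 11.48 on the MEF arrays and 9.04, 9.20 and 9.04 on the CiCM arrays and differed by -2.50 ± 0.20 (adjusted p = 2.77e-06), and Spry2 by -1.16. Errfi1, which inhibits the EGF receptor, differed by -2.08 ± 0.15 (adjusted p = 1.51e-06). Etv5 and Spred1, of the same response, differed by -0.87 and -0.88 and missed the minimum difference of 1. Not every phosphatase fell: Dusp1 rose by 1.38 ± 0.19 (adjusted p = 0.000152), Dusp14 by 1.91 ± 0.19 (adjusted p = 1.46e-05), and Dusp27, a pseudophosphatase of muscle, was at 5.16, 6.31 and 6.86 on the MEF arrays and 10.13, 10.22 and 10.20 on the CiCM arrays and differed by 4.08 ± 0.36 (adjusted p = 5.67e-06; 3.53 with 32 added).

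On the PI3K side Trib2, a pseudokinase that binds the ubiquitin ligase COP1, was at 11.42, 11.33 and 11.28 on the MEF arrays and 7.66, 7.62 and 7.21 on the CiCM arrays and differed by -3.84 ± 0.18 (adjusted p = 6.8e-08), and Trib3 by -1.90 ± 0.16 (adjusted p = 4.94e-06). Irs2, the insulin receptor adaptor, differed by -3.96 ± 0.68 (adjusted p = 0.000661; -2.50 with 32 added). Pik3r1 and Pik3r3, regulatory subunits of PI3K, rose by 1.41 and 1.71, and Sesn3, a sestrin that restrains mTORC1, rose by 1.99 ± 0.16 (adjusted p = 2.96e-06). The cytokine brakes Socs2, Socs3 and Socs7 rose by 1.10, 1.21 and 1.60, and the Socs2 difference was 0.987 without CiCM replicate 1.

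Cyclic nucleotide and G protein regulators counted 11 of 61 higher and 10 lower, and 10 and 15 with the hybridisation control levelling. Forskolin, in the cocktail, raises cAMP, and frees the kinase PKA, of which 2 subunits and 2 inhibitors were called. Prkaca, its catalytic subunit, rose by 1.72 ± 0.10 (adjusted p = 2.7e-07). Inhibitors of that subunit rose as well, Pkia from 8.84, 8.83 and 8.68 to 11.70, 11.36 and 11.44, a difference of 2.72 ± 0.11 (adjusted p = 2.3e-08), and Pkig by 1.97 ± 0.11 (adjusted p = 2.72e-07). Prkar2b, a regulatory subunit, was at 9.76, 9.74 and 9.54 on the MEF arrays and 6.01, 6.79 and 6.04 on the CiCM arrays and differed by -3.40 ± 0.78 (adjusted p = 0.00413; -2.95 with 32 added). The phosphodiesterases Pde7a, Pde7b and Pde8b, which degrade cAMP, rose by 1.38, 1.60 and 1.02, and Pde1a and Pde1b differed by -1.18 and -1.21. The Pde8b difference was 0.942 to 0.982 without MEF replicate 1 or CiCM replicate 2 or 3, and that of Pde1a was -0.975 without CiCM replicate 3. Prkg2, a kinase that responds to cGMP, was at 9.95, 9.77 and 9.97 on the MEF arrays and 5.96, 5.76 and 4.98 on the CiCM arrays and differed by -4.33 ± 0.70 (adjusted p = 0.000473; -3.62 with 32 added). Gna14, a G protein of the Gq class, was dim in MEF and rose by 3.42 ± 0.36 (adjusted p = 2.12e-05; 2.66 with 32 added).

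**Figure D3:**
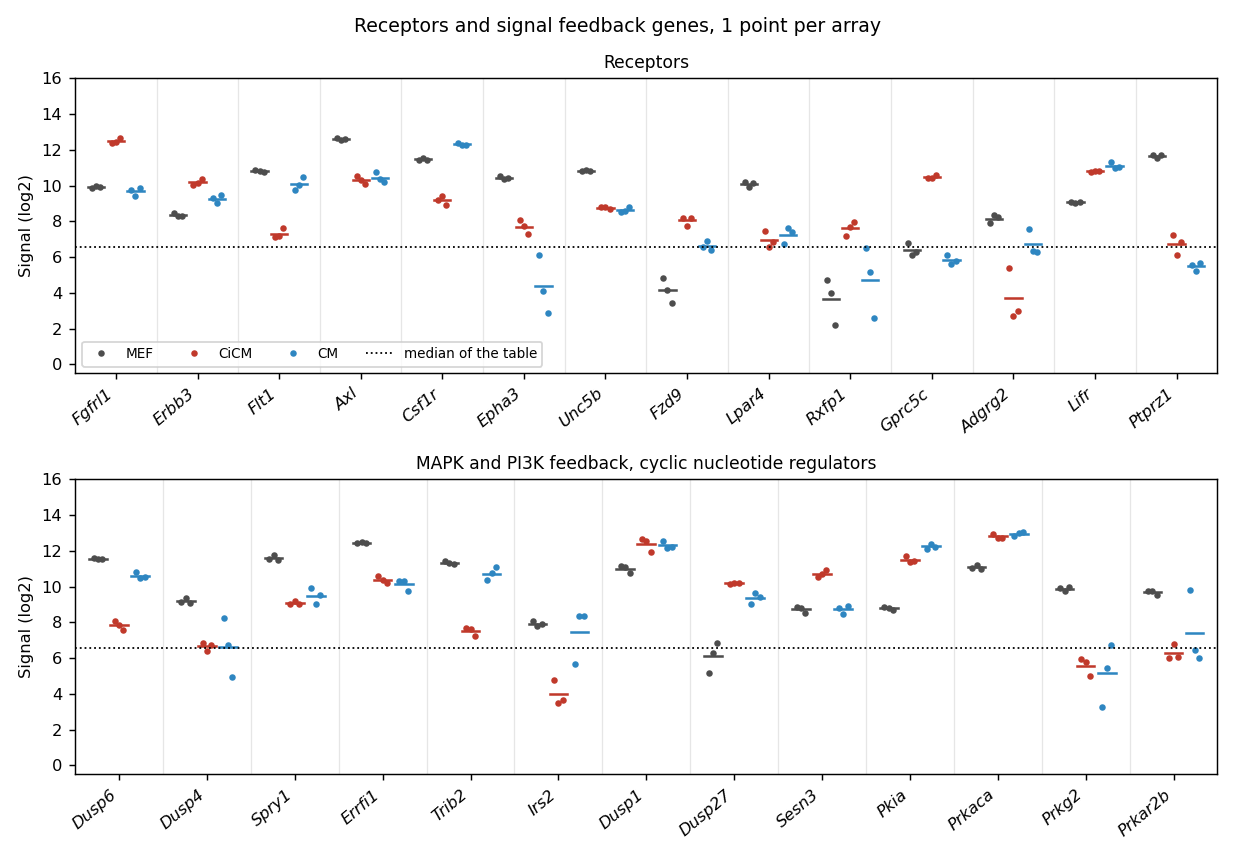
Log2 signal of receptors (top) and of feedback and cyclic nucleotide regulators (bottom) on each MEF (grey), CiCM (red) and CM (blue) array, with group means as short lines and 6.58 dotted. Levels are not comparable between genes. Dusp6, Trib2, Flt1 and Ptprz1 lie at least 3 log2 units lower on the CiCM arrays, and Gprc5c lies 4.09 higher.

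Nuclear receptors, the transcription factors that ligands such as retinoids and steroids switch on, rose in 11 of 32 tested genes and fell in 2, with a median of 0.52. Rarb, a retinoic acid receptor whose own gene retinoic acid induces, was at 6.07, 5.53 and 6.01 on the MEF arrays and 10.85, 10.88 and 10.79 on the CiCM arrays, without overlap, and differed by 4.97 ± 0.16 (adjusted p = 4.89e-09; 4.36 with 32 added). Rara went the other way, from a mean of 7.84 to 6.48, also without overlap, and differed by -1.36 ± 0.34 (adjusted p = 0.0069; -1.09 with 32 added), while Rarg differed by -0.07 and was not called. The partner Rxrg rose by 3.04 ± 0.59 (adjusted p = 0.00157; 1.94 with 32 added), and Rxra differed by 0.08. Cyp26a1 and Cyp26b1, which degrade retinoic acid, rose by 7.88 (4.83 with 32 added) and 3.73, and were named after their values were seen. Of the steroid receptors Pgr, for progesterone, rose by 2.59 ± 0.36 (adjusted p = 0.000156; 2.03 with 32 added) and Esr1, for oestrogen, by 1.72 ± 0.46 (adjusted p = 0.00951). Of the oestrogen-related receptors, orphan regulators of mitochondrial genes, Esrra rose by 1.26 ± 0.12 (adjusted p = 1.4e-05) and Esrrb by 1.77 ± 0.34 (adjusted p = 0.00134; 1.46 with 32 added). Esrrg was dim in both groups, tested only through the CM arrays, and differed by 1.68 ± 0.37 (adjusted p = 0.00316; 0.96 with 32 added), which is under the minimum difference with 32 added. Nr4a3, an early response gene of cAMP signalling, was at 6.93, 6.58 and 6.60 on the MEF arrays and 8.999, 9.14 and 9.19 on the CiCM arrays and differed by 2.41 ± 0.60 (adjusted p = 0.00637), but its relatives Nr4a1 and Nr4a2 differed by 0.35 and -0.89 and were not called. Vdr, the vitamin D receptor, differed by -1.38 ± 0.36 (adjusted p = 0.00884).

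Homeobox factors outside the Hox clusters counted 6 of 52 higher and 13 lower. Meox1 and Meox2, factors of the somites and their muscle precursors, both fell. Meox1 was at 9.15, 9.03 and 9.01 on the MEF arrays and 3.88, 5.44 and 2.59 on the CiCM arrays, with -5.09 ± 0.57 (adjusted p = 3.44e-05; -3.47 with 32 added), and Meox2 differed by -2.79 ± 0.63 (adjusted p = 0.00358; -1.64 with 32 added), whereas the CM arrays held both, at 8.47, 9.27 and 8.94 and 9.62, 10.23 and 10.12. The Iroquois genes split by member: Irx1 was at 10.18, 10.28 and 10.31 on the MEF arrays and 6.76, 7.24 and 6.47 on the CiCM arrays and differed by -3.44 ± 0.30 (adjusted p = 5.69e-06), Irx2 differed by -2.20 ± 0.27 (adjusted p = 7.7e-05), and Irx3 and Irx5 rose by 1.25 and 1.30. Prrx1, a factor of limb and skin mesenchyme, differed by -1.36 ± 0.08 (adjusted p = 2.21e-07), Meis1 by -1.78 and Zfhx3 by -2.04. Msx1, a factor of undifferentiated mesenchyme, was at 4.61, 5.35 and 5.94 on the MEF arrays and 7.77, 8.29 and 7.88 on the CiCM arrays and rose by 2.68 ± 0.36 (adjusted p = 0.000134; 1.97 with 32 added). Isl1, a factor of heart progenitors and motor neurons, was at 4.63, 6.19 and 4.95 on the MEF arrays and 7.34, 7.48 and 7.32 on the CiCM arrays and rose by 2.12 ± 0.58 (adjusted p = 0.0106; 1.46 with 32 added), while the CM arrays were at 4.08, 4.48 and 3.29.

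Forkhead factors fell without a called rise, 7 of 22 lower and 0 higher, with a median of -0.54. Foxc2 and Foxc1, factors of paraxial mesoderm and vessels, differed by -3.19 ± 0.59 (adjusted p = 0.00109; -2.78 with 32 added) and -1.64 ± 0.36 (adjusted p = 0.00307). Foxs1, found in vessel-associated cells, was at 8.51, 8.38 and 8.41 on the MEF arrays and 6.33, 6.22 and 4.88 on the CiCM arrays and differed by -2.62 ± 0.37 (adjusted p = 0.000196; -2.07 with 32 added). Foxp1 was at 12.15, 12.16 and 12.07 on the MEF arrays and 10.49, 10.58 and 10.84 on the CiCM arrays, with -1.49 ± 0.10 (adjusted p = 6.74e-07). Foxm1, which drives mitotic genes, differed by -1.08 ± 0.29 (adjusted p = 0.00903; -0.86 with 32 added), and without MEF replicate 3 or CiCM replicate 3 by -0.94 to -0.85, under the minimum difference. Of 12 SOX factors 2 rose and 1 fell, 25% called, close to the 23.8% of all tested genes, or 2 and 3 with the hybridisation control levelling. Sox6, a factor of fast muscle fibres and cartilage, rose by 1.37 ± 0.24 (adjusted p = 0.000759). Sox17, an endoderm and endothelial factor, was at 3.91, 3.75 and 4.64 on the MEF arrays and 5.25, 8.18 and 7.99 on the CiCM arrays, with CiCM replicate 1 far under the other two, and differed by 3.04 ± 0.65 (adjusted p = 0.00278; 1.91 with 32 added). Sox2, of stem and neural cells, differed by -1.04 ± 0.39 (adjusted p = 0.045; -0.82 with 32 added), a call that held without CiCM replicate 3 and in no other leaving-out of 1 of the 6 arrays, at 0.101 to 0.119.

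T-box, RUNX, TEAD and NFI factors rose in 7 of 18 and fell in 2. The TEAD factors, which carry the Hippo pathway's output, exchanged members. Tead4 was at 5.03, 5.95 and 5.99 on the MEF arrays and 9.01, 9.04 and 9.04 on the CiCM arrays, with 3.37 ± 0.35 (adjusted p = 2.27e-05; 2.73 with 32 added), and Tead2 at 10.04, 9.98 and 10.04 on the MEF arrays and 8.96, 8.51 and 8.51 on the CiCM arrays, with -1.36 ± 0.42 (adjusted p = 0.0196). The Tead2 call ended without MEF replicate 1 or 3 or CiCM replicate 2 or 3, at adjusted p-values of 0.0514 to 0.0612. The SD of Tead2 in MEF, CiCM and CM was 0.039, 0.26 and 1.08, and its call held in a fit of only the CiCM and MEF arrays. Tbx3 and Tbx2, repressors of the heart's conduction tissue and other organs, rose by 2.30 ± 0.25 (adjusted p = 3.01e-05) and 1.37 ± 0.30 (adjusted p = 0.00319; 1.07 with 32 added), and Tbx15 rose by 1.62 ± 0.22 (adjusted p = 0.000163). Tbx20, a core factor of the heart, differed by 1.71 ± 0.41 (adjusted p = 0.00569; 0.69 with 32 added), yet was dim in both groups, at 2.84, 4.39 and 3.62 on the MEF arrays and 5.02, 5.78 and 5.18 on the CiCM arrays, against 12.21, 11.72 and 11.39 on the CM arrays. Nfia and Nfic rose by 1.14 and 1.04, and Nfib differed by -1.01, or by -0.98 to -0.94 without MEF replicate 1 or CiCM replicate 1 or 2, as that of Nfic was 0.938 to 0.986 without replicate 3 of either group.

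ETS factors fell in 4 of 16 and rose in 1. Fli1, of blood and endothelium, was at 8.83, 8.93 and 8.77 on the MEF arrays and 6.85, 5.96 and 3.95 on the CiCM arrays, with -3.26 ± 0.56 (adjusted p = 0.000659; -2.50 with 32 added), and Ets1, which growth factor signals activate, was at 11.76, 11.96 and 11.86 on the MEF arrays and 10.25, 9.89 and 9.69 on the CiCM arrays, with -1.91 ± 0.15 (adjusted p = 2.8e-06). Spi1, the factor of macrophages, differed by -1.70 ± 0.29 (adjusted p = 0.00067; -1.32 with 32 added) beside the macrophage markers, and the part of those cells was not tested. Elf3, an epithelial factor, rose by 1.06 ± 0.30 (adjusted p = 0.0123) and its call ended without MEF replicate 1 or 2 or CiCM replicate 2, where the difference was 0.88 to 0.97.

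Among KLF, EGR, GLI and ZIC zinc fingers and their partners 1 of 34 rose and 5 fell, 17.6% called, below the share of all tested genes. Klf5 was at 8.50, 8.27 and 8.32 on the MEF arrays and 10.85, 10.83 and 11.00 on the CiCM arrays, with 2.53 ± 0.38 (adjusted p = 0.000276), and with 1.26 and no call when its probe sets were averaged. Egr2 and Egr3, early response genes of ERK signalling, both fell: Egr2 was at 9.05, 9.19 and 9.21 on the MEF arrays and 5.16, 2.43 and 5.97 on the CiCM arrays, with -4.63 ± 0.73 (adjusted p = 0.000388; -3.27 with 32 added), and Egr3 differed by -4.15 ± 0.86 (adjusted p = 0.00227; -2.27 with 32 added). Zfpm2, a partner of GATA4 in the heart, was at 9.64, 9.81 and 9.55 on the MEF arrays and 7.39, 5.83 and 4.19 on the CiCM arrays and differed by -3.86 ± 0.59 (adjusted p = 0.000328; -3.13 with 32 added), while the CM arrays were at 10.22, 10.10 and 10.29. Klf12 differed by -2.88 ± 0.26 (adjusted p = 8.42e-06; -2.44 with 32 added).

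Of 46 bHLH and EBF factors outside the MyoD family 6 rose and 9 fell. All 3 EBF factors of the mesenchyme that were called fell: Ebf2 was at 8.06, 8.09 and 8.01 on the MEF arrays and 4.33, 4.78 and 0.89 on the CiCM arrays, with -4.72 ± 0.82 (adjusted p = 0.000719; -2.66 with 32 added), Ebf1 differed by -2.25 ± 0.17 (adjusted p = 1.84e-06) and Ebf3 by -1.93 ± 0.23 (adjusted p = 5.66e-05; -1.60 with 32 added), and all 3 were above the line on the CM arrays. The growth-promoting factors Myc, Mycl and Mycn fell as well, with differences of -2.07 ± 0.17 (adjusted p = 4.61e-06), -2.92 ± 0.75 (adjusted p = 0.00751; -2.15 with 32 added) and -1.13 ± 0.26 (adjusted p = 0.00422; -0.81 with 32 added). Mlxipl, the glucose-sensing factor ChREBP, was at 2.08, 1.17 and 5.53 on the MEF arrays and 7.69, 8.04 and 8.49 on the CiCM arrays and rose by 5.15 ± 0.88 (adjusted p = 0.000654; 2.72 with 32 added). Tal2 was at 5.21, 1.57 and 3.11 on the MEF arrays and 8.76, 8.52 and 8.57 on the CiCM arrays and rose by 5.32 ± 0.94 (adjusted p = 0.000824; 3.20 with 32 added). Tfeb, of lysosomes, rose by 2.10 ± 0.28 (adjusted p = 0.000131; 1.70 with 32 added), and Scx, of tendon, by 2.11 ± 0.44 (adjusted p = 0.00231; 1.71 with 32 added). Hand2, a factor of the right ventricle, differed by -1.25 ± 0.20 (adjusted p = 0.000374; -0.98 with 32 added), against 10.37, 10.43 and 10.15 in CM.

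Circadian clock genes rose in 7 of 19 and fell in 0, with a median of 0.79, and in 5 and 0 with the hybridisation control levelling. Hlf, an output factor of the PAR family, was at 5.01, 5.02 and 5.52 on the MEF arrays and 7.66, 7.83 and 8.01 on the CiCM arrays, with 2.65 ± 0.29 (adjusted p = 2.95e-05; 1.92 with 32 added), and Tef at 9.51, 9.25 and 9.54 on the MEF arrays and 10.83, 11.02 and 11.20 on the CiCM arrays, with 1.58 ± 0.18 (adjusted p = 4.79e-05), while Dbp, of the same family, differed by 0.92 and was not called. Npas2, a partner of BMAL1, rose by 2.06 ± 0.48 (adjusted p = 0.00474; 1.64 with 32 added). The repressors Per2, Per3 and Cry2 rose by 1.53 ± 0.24 (adjusted p = 0.000363), 1.32 ± 0.28 (adjusted p = 0.0023) and 1.13 ± 0.20 (adjusted p = 0.000803). The labels give no time of day for any sample, so the phase at which the RNA was taken cannot be told apart from the groups.

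**Figure D4:**
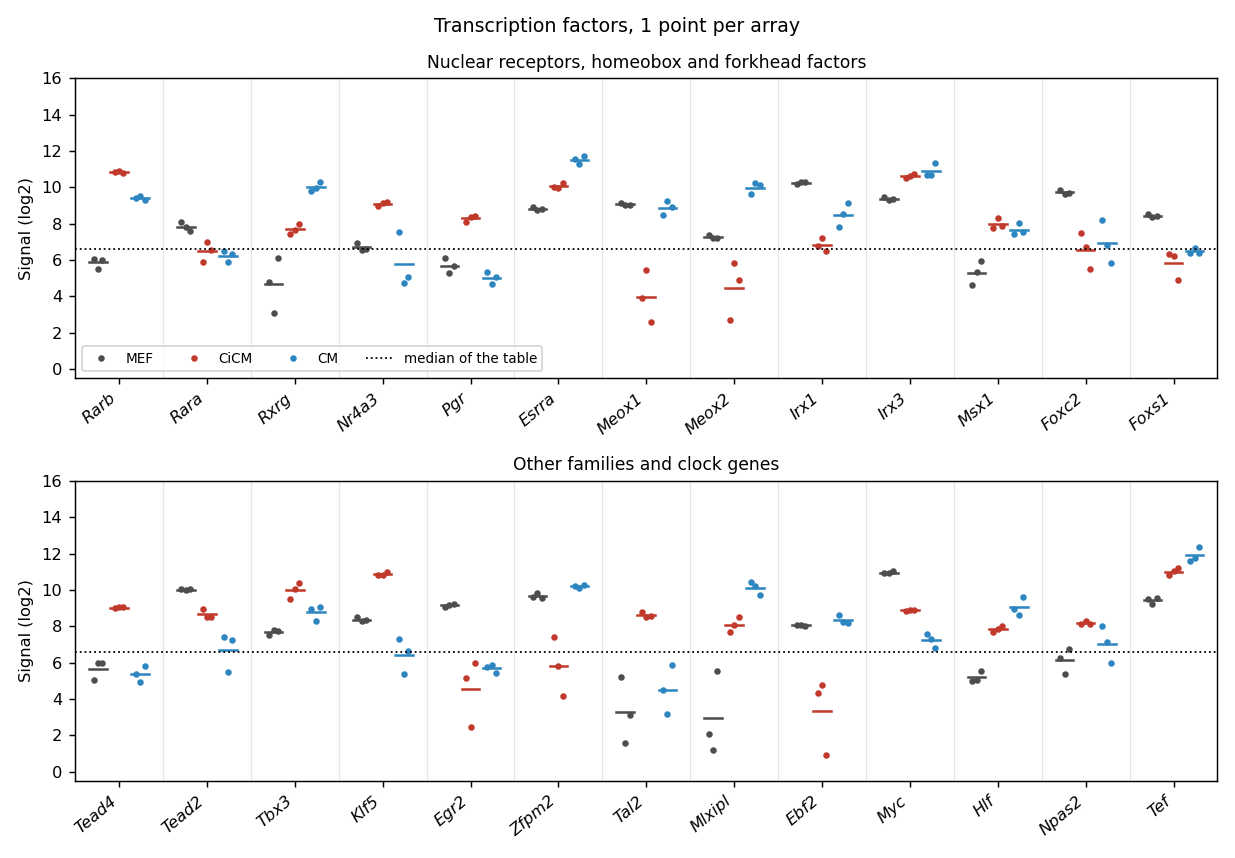
Log2 signal of transcription factors on each MEF (grey), CiCM (red) and CM (blue) array, with group means as short lines and 6.58 dotted. Levels are not comparable between genes. Rarb lies 4.97 and Tead4 3.37 higher on the CiCM arrays, and Meox1 and Egr2 lie at least 4 log2 units lower.

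Promoter sequences from RefSeq (GRCm38.p6) were set beside these groups, for the 10090 tested genes, or 80.3%, with an entry. The 250 bases before each start were searched on both strands for 4 short motifs, none of which contains another. CAGCTG, the E-box read by muscle bHLH factors, was in 13% of all 32851 promoters, in 21.6% of the genes called higher, 13.2% of those called lower and 13.8% of those not called. TTTGAA, the cell cycle homology region of mitotic genes, was in 16% of all promoters, and in 13.4%, 17.5% and 12% of the same groups. TGACGTCA, the full cAMP response element, was in 1.55%, and in 2.5%, 2.17% and 3.01%. The direct repeat read by retinoic acid receptors (GTTCA, then any 6 bases, then GTTCA) was in 22 promoters, or 0.067%. It was in 3 of 1122 higher (0.267%), 1 of 1197 lower (0.0835%) and 2 of 7771 uncalled genes (0.0257%), too few to compare shares. Those of Rarb, which rose, and of Blvrb, which fell by 1.28, held it. A match is a description of letters and not a site.

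The 100 bases before the start are given for 6 genes picked because they hold a match, 5′ to 3′ in the sense of the gene, with the matched letters in capitals: Rarb for the retinoic acid repeat (chr14:16575477-16575576, minus strand), Angpt4 (chr2:151911107-151911206, plus strand) and Mlxipl (chr5:135106791-135106890, plus strand) as risen genes with the E-box, Cdc20 (chr4:118437344-118437443, minus strand) as a mitotic gene that fell, and Flt1 (chr5:147726012-147726111, minus strand) and Hlf (chr11:90390918-90391017, minus strand) as genes that share the cAMP element and moved in opposite directions.
Rarb: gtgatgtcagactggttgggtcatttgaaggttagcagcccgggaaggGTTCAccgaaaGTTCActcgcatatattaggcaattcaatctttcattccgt
Angpt4: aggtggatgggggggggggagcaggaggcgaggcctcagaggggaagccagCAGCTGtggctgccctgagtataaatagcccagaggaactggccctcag
Mlxipl: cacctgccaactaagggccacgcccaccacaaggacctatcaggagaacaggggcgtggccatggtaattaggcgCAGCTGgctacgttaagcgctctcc
Cdc20: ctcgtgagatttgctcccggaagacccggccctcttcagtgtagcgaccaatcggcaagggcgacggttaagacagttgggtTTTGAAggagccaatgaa
Flt1: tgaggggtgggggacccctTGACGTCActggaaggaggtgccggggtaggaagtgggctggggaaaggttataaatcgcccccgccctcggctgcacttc
Hlf: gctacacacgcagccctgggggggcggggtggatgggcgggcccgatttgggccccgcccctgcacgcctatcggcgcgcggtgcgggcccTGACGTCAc
Capitals mark only the motif for which a gene is shown. In Rarb the repeat begins 52 bases before the start, in Angpt4 the E-box begins at 49, in Mlxipl at 25 and in Cdc20 the TTTGAA at 18. Rarb, a risen gene, also holds TTTGAA at 77, left in lower case. The cAMP element begins at 81 in Flt1, which differed by -3.51, and at 9 in Hlf, which rose by 2.65. Named genes that fell held the E-box too, among them Slco2b1, Sema7a and Metrnl.

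Nucleotide genes counted 7 of 51 higher and 13 lower, and 5 and 21 with the hybridisation control levelling. Ampd1, the muscle AMP deaminase of the purine nucleotide cycle, was at 4.12, 2.96 and 4.14 on the MEF arrays and 10.88, 10.79 and 10.90 on the CiCM arrays, without overlap, and differed by 7.12 ± 1.01 (adjusted p = 0.000188; 5.36 with 32 added), while the CM arrays were dim, at 0.42, 2.14 and 5.31. Adssl1, the muscle adenylosuccinate synthetase of that cycle, was at 7.41, 8.05 and 8.07 on the MEF arrays and 10.96, 10.84 and 10.70 on the CiCM arrays and rose by 2.99 ± 0.19 (adjusted p = 5.66e-07), and the general isoform Adss moved from 12.27, 12.21 and 12.33 to 10.85, 10.81 and 10.49, with -1.55 ± 0.10 (adjusted p = 7.88e-07). Ampd3 rose by 2.67 ± 0.09 (adjusted p = 7.73e-09). The purine degrading enzymes Xdh and Gda rose by 2.25 ± 0.17 (adjusted p = 1.72e-06) and 2.46 ± 0.20 (adjusted p = 3.24e-06). On the DNA precursor side Rrm2, a subunit of ribonucleotide reductase, was at 12.25, 12.33 and 12.28 on the MEF arrays and 9.83, 9.85 and 9.84 on the CiCM arrays, with -2.45 ± 0.23 (adjusted p = 1.09e-05), and Rrm1 differed by -1.78. The salvage kinases Tk1 and Dck differed by -3.84 ± 0.43 (adjusted p = 3.25e-05; -3.14 with 32 added) and -2.19 ± 0.18 (adjusted p = 3.3e-06), and Dut, which keeps uracil out of DNA, by -1.59. Of the adenylate kinases Ak1 and Ak3 rose by 1.23 and 1.08, and Ak4 and Ak5 differed by -1.19 and -2.35.

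Serine, glycine and 1-carbon metabolism, which feeds nucleotide synthesis, counted 2 of 22 higher and 7 lower, with a median of -0.82, and 2 and 12 with the hybridisation control levelling. Phgdh and Psat1, the first steps of serine synthesis, differed by -1.42 ± 0.25 (adjusted p = 0.000914) and -1.01; Psat1 was at -0.996 to -0.974 without MEF replicate 1 or CiCM replicate 2 or 3. Cth, which makes cysteine from cystathionine, was at 10.96, 11.00 and 11.09 on the MEF arrays and 9.18, 8.88 and 8.89 on the CiCM arrays, with -2.04 ± 0.14 (adjusted p = 8e-07). The mitochondrial enzyme Mthfd1l was at 10.72, 10.73 and 10.68 on the MEF arrays and 9.27, 8.98 and 8.81 on the CiCM arrays, with -1.69 ± 0.16 (adjusted p = 1.08e-05), and Aldh1l2, of the same compartment, differed by -1.28. Shmt2 and Mthfd2 differed by -0.99 and -0.87 and missed the minimum difference. Aldh1l1, the cytosolic relative of Aldh1l2, moved the other way and rose by 2.26 ± 0.49 (adjusted p = 0.00297; 1.89 with 32 added), and the folate receptors parted, with Folr1 at 1.52 ± 0.28 (adjusted p = 0.00118) and Folr2, found on macrophages, at -1.74 ± 0.22 (adjusted p = 9.05e-05).

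Amino acid and polyamine enzymes counted 8 of 37 higher and 4 lower, which turned to 5 and 8 with the hybridisation control levelling. The branched-chain transaminases exchanged isoforms. Bcat1, of the cytosol, was at 11.76, 11.84 and 11.89 on the MEF arrays and 9.78, 9.91 and 9.71 on the CiCM arrays, with -2.03 ± 0.12 (adjusted p = 4.03e-07), and Bcat2, of mitochondria, was at 6.98, 5.90 and 6.76 on the MEF arrays and 8.23, 8.05 and 8.13 on the CiCM arrays, with 1.59 ± 0.27 (adjusted p = 0.000619; 1.31 with 32 added). The aspartate transaminases Got1 and Got2 rose by 1.77 ± 0.08 (adjusted p = 4.48e-08) and 1.13 ± 0.14 (adjusted p = 7.53e-05), and Gatm, the first enzyme of creatine synthesis, was at 8.05, 7.87 and 8.29 on the MEF arrays and 10.68, 10.52 and 10.46 on the CiCM arrays and rose by 2.48 ± 0.19 (adjusted p = 2.36e-06). Nos1, the nitric oxide synthase of neurons and muscle, rose by 1.35 ± 0.25 (adjusted p = 0.00118), and Ddah1, which removes inhibitors of such enzymes, differed by -1.82 ± 0.25 (adjusted p = 0.000139). Arg1, an arginase that macrophages express in quantity, was at 11.50, 11.46 and 11.49 on the MEF arrays and 5.90, 5.85 and 2.05 on the CiCM arrays, with -6.88 ± 1.24 (adjusted p = 0.000933; -5.44 with 32 added), the largest loss in the lists. On the CM arrays, where the macrophage and blood cell markers summed to 16830 to 25130, Arg1 was at 5.34, 3.42 and 0.37. The part of macrophages in its fall was not tested.

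Sugar pathways for building blocks and glycosaminoglycans leaned down, 3 of 49 higher and 14 lower. Has2, which makes hyaluronan, was at 9.53, 9.74 and 9.67 on the MEF arrays and 7.45, 6.19 and 7.30 on the CiCM arrays, with -2.67 ± 0.43 (adjusted p = 0.000419). The hexosamine enzymes Gnpnat1 and Pgm3 differed by -1.64 ± 0.12 (adjusted p = 1.93e-06) and -1.61 ± 0.17 (adjusted p = 2.61e-05), and Ugdh, which makes the glucuronate donor, by -1.26 ± 0.20 (adjusted p = 0.000411). The sulfotransferases Chst1 and Chst2 differed by -2.73 ± 0.36 (adjusted p = 0.000119; -2.22 with 32 added) and -2.39 ± 0.27 (adjusted p = 3.68e-05). Heparan sulfate genes were mixed: Ext1, a polymerase, differed by -1.31 ± 0.10 (adjusted p = 1.96e-06), Hs3st3b1 by -2.10, but Hs3st1, which sulfates heparan chains at the site antithrombin binds, was at 5.90, 5.92 and 6.26 on the MEF arrays and 11.19, 11.24 and 11.03 on the CiCM arrays and rose by 5.13 ± 0.26 (adjusted p = 1.25e-07; 4.57 with 32 added), and Extl1 rose by 2.59 ± 0.36 (adjusted p = 0.000167; 1.92 with 32 added).

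Eicosanoid, phospholipid and steroid genes counted 8 of 50 higher and 10 lower, or 8 and 13 with the hybridisation control levelling. Cyp7b1, a hydroxylase of oxysterols, was at 9.26, 9.26 and 9.15 on the MEF arrays and 12.77, 12.83 and 12.82 on the CiCM arrays and rose by 3.58 ± 0.12 (adjusted p = 6.08e-09). Ch25h, which makes the oxysterol 25-hydroxycholesterol, moved the other way, at 10.87, 10.86 and 10.85 on the MEF arrays and 7.44, 7.85 and 7.52 on the CiCM arrays, with -3.25 ± 0.15 (adjusted p = 6.94e-08). Hsd11b1, which regenerates active glucocorticoid, was at 6.39, 6.06 and 6.63 on the MEF arrays and 10.94, 10.82 and 10.87 on the CiCM arrays and rose by 4.52 ± 0.17 (adjusted p = 1.1e-08; 4.06 with 32 added). In prostanoid synthesis Ptgis, the prostacyclin synthase, was at 10.83, 10.79 and 10.74 on the MEF arrays and 8.80, 7.89 and 7.09 on the CiCM arrays, with -2.86 ± 0.36 (adjusted p = 8.63e-05), Ptgs2, the inducible cyclooxygenase, differed by -2.23 ± 0.70 (adjusted p = 0.0205), and Ptgds, a prostaglandin D2 synthase, was at 7.65, 7.46 and 7.51 on the MEF arrays and 9.97, 10.77 and 10.82 on the CiCM arrays and rose by 2.98 ± 0.22 (adjusted p = 1.56e-06). The Ptgs2 call ended without MEF replicate 1 or CiCM replicate 2 or 3, at adjusted p-values of 0.0541 to 0.0741. Alox5ap, of leukotriene synthesis in myeloid cells, differed by -2.82 ± 0.15 (adjusted p = 1.66e-07). Lpin1, a phosphatidate phosphatase, and Gpam, the first acyltransferase of glycerolipid synthesis, rose by 2.52 ± 0.09 (adjusted p = 6.36e-09) and 1.34 ± 0.16 (adjusted p = 5.23e-05).

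Detoxification genes counted 8 of 54 higher and 9 lower. Of the aldehyde dehydrogenases that can make retinoic acid, Aldh1a3 was at 6.97, 6.65 and 6.63 on the MEF arrays and 1.77, 4.71 and 1.94 on the CiCM arrays, with -3.94 ± 1.11 (adjusted p = 0.0127; -1.74 with 32 added), Aldh1a1 differed by -1.63 ± 0.43 (adjusted p = 0.00906), and Aldh1a2 by -0.56 without a call. Their relative Aldh1a7, which is not counted among those enzymes, differed by -4.40 ± 0.96 (adjusted p = 0.00297; -2.84 with 32 added). Akr1c18, which inactivates progesterone, was at 2.83, 2.64 and 3.65 on the MEF arrays and 7.06, 8.13 and 8.50 on the CiCM arrays and rose by 4.86 ± 1.05 (adjusted p = 0.00291; 2.75 with 32 added). Abcc9, a subunit of ATP-sensitive potassium channels of muscle, was at 7.95, 7.68 and 7.88 on the MEF arrays and 11.07, 11.16 and 11.51 on the CiCM arrays and rose by 3.41 ± 0.14 (adjusted p = 2.23e-08), with 13.21, 13.52 and 13.53 on the CM arrays.

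Carriers for sugars, amino acids and organic anions counted 9 of 59 higher and 10 lower. The glucose carriers exchanged members. Slc2a1, the carrier of growing cells, moved from 12.46, 12.66 and 12.64 to 10.93, 11.15 and 11.01, with -1.56 ± 0.09 (adjusted p = 4.17e-07), and Slc2a4, the insulin-responsive carrier of muscle and fat, from 7.26, 7.16 and 6.68 to 9.49, 9.45 and 10.00, with 2.61 ± 0.19 (adjusted p = 1.29e-06); the CM arrays held 13.11, 13.28 and 13.43. Monocarboxylate carriers parted too, Slc16a1 at 1.12, Slc16a9 at 3.38 (2.10 with 32 added) and Slc16a12 at 2.17, but Slc16a7 at -3.01 (-1.43 with 32 added). The organic anion carrier Slco5a1 was at 6.22, 6.14 and 6.87 on the MEF arrays and 9.85, 10.45 and 10.11 on the CiCM arrays and rose by 3.73 ± 0.22 (adjusted p = 3.78e-07; 3.299 with 32 added). Slco2b1 differed by -3.17 ± 0.33 (adjusted p = 1.89e-05; -1.90 with 32 added), and averaging its probe sets gave 0.025. Slc6a15, a carrier of branched amino acids, differed by -3.58 ± 1.27 (adjusted p = 0.0359; -1.86 with 32 added), a call that held without CiCM replicate 3 alone, and was lost at 0.061 to 0.108 without each of the other 5 arrays. The fit with the replicate number as a block ended it too.

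Iron, copper, zinc and haem genes counted 8 of 45 higher and 4 lower, 26.7% called, close to the share of all tested genes. Mb, the oxygen-binding myoglobin, was at 5.02, 5.97 and 5.19 on the MEF arrays and 14.23, 14.24 and 14.29 on the CiCM arrays and rose by 8.86 ± 0.22 (adjusted p = 8.76e-10; 8.03 with 32 added). Hjv, a co-receptor by which muscle and liver sense iron, was at 1.56, 4.95 and 4.11 on the MEF arrays and 11.91, 12.06 and 12.11 on the CiCM arrays and rose by 8.49 ± 0.65 (adjusted p = 2.2e-06; 6.46 with 32 added). Tfrc, which takes up transferrin, and Fech, the last enzyme of haem synthesis, rose by 1.73 ± 0.25 (adjusted p = 0.000223) and 1.28 ± 0.10 (adjusted p = 1.82e-06). Hmox1, which breaks haem down, differed by -1.10 ± 0.13 (adjusted p = 5.51e-05), and Slc11a1, a metal carrier of macrophages, by -1.77 ± 0.16 (adjusted p = 7.64e-06).

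**Figure D5:**
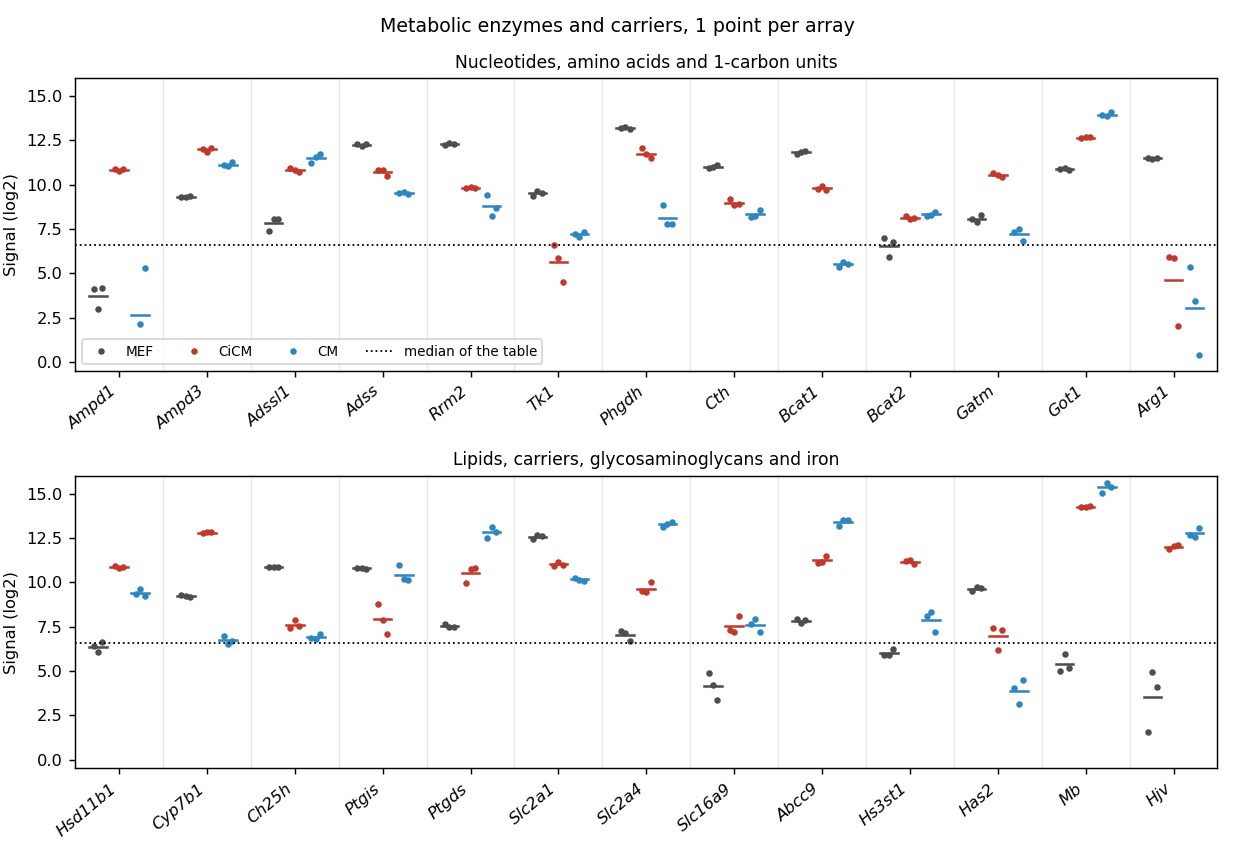
Log2 signal of metabolic enzymes and carriers on each MEF (grey), CiCM (red) and CM (blue) array, with group means as short lines and 6.58 dotted. Levels are not comparable between genes. Adss and Adssl1, Bcat1 and Bcat2, and Slc2a1 and Slc2a4 moved in opposite directions, and Ampd1 lies 7.12 higher on the CiCM arrays.

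Outside every list the 12 largest rises were all genes of the contractile apparatus and its regulators. Tnni1, the slow skeletal troponin I, was at 3.42, 3.73 and 5.12 on the MEF arrays and 14.20, 14.40 and 14.31 on the CiCM arrays, with 10.22 ± 0.61 (adjusted p = 3.48e-07; 8.65 with 32 added), and was dim on the CM arrays, at 4.86, 3.13 and 2.30. Mybph, Mybpc1, Myh2 and Tnnt1 are skeletal forms too and rose by 10.69 (8.23 with 32 added), 9.90 (8.05 with 32 added), 9.77 (7.97 with 32 added) and 9.07 (7.94 with 32 added). Ttn, Myom2, Synpo2l, Smpx and Myoz2, which heart and skeletal muscle share, rose by 10.09 (8.23 with 32 added), 11.84 (8.01 with 32 added), 9.97 (7.92 with 32 added), 9.22 (7.87 with 32 added) and 9.55 (7.70 with 32 added) and were above 12 on every CM array. Klhl41 and Myot rose by 9.69 (7.69 with 32 added) and 10.89 (7.49 with 32 added).

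Of the 12 largest losses outside the lists 6, Top2a, Cdc20, Cenpa, Mki67, Ube2c and Bub1, serve chromosome separation, a grouping made after the values were seen, and differed by -5.28, -4.91, -5.14, -4.998, -4.65 and -5.42. Cdc20, the activator of the anaphase ubiquitin ligase, was at 12.11, 12.09 and 12.11 on the MEF arrays and 7.45, 7.05 and 7.06 on the CiCM arrays, with -4.91 ± 0.20 (adjusted p = 2.3e-08). Hmga2, a chromatin protein of embryonic cells, was at 12.55, 12.56 and 12.47 on the MEF arrays and 7.03, 6.64 and 6.48 on the CiCM arrays, with -5.81 ± 0.19 (adjusted p = 4.53e-09). Tnmd, of tendon, was at 12.26, 12.20 and 12.14 on the MEF arrays and 6.90, 6.57 and 4.94 on the CiCM arrays, with -6.06 ± 0.59 (adjusted p = 1.36e-05; -5.48 with 32 added). Cav1, the coat protein of caveolae, was at 12.97, 13.01 and 12.94 on the MEF arrays and 8.12, 8.12 and 8.39 on the CiCM arrays, with -4.77 ± 0.11 (adjusted p = 7.38e-10), but at 13.75, 14.07 and 14.11 on the CM arrays. Ccl9, a chemokine, differed by -4.76 ± 0.17 (adjusted p = 8.49e-09), Rtl3, a gene derived from a retrotransposon, by -7.01 ± 0.73 (adjusted p = 2.08e-05; -4.27 with 32 added), and Ptprz1 is given above.

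Some of the genes named have further probe sets past the line that read the other way, which leaves their direction to the brightest probe set. Among transcription factors these were Esrra (-0.36), Esrrg (-0.80 to 0.79), Tbx20 (-0.95 to -0.80), Nfia (-0.16 to 0.58), Per3 (-0.36 to 0.62), Tef (-0.20 to 0.66), Mycn (-0.74 to 0.14) and Hand2 (0.98), with the differences of the further probe sets in brackets. Among the others they were Ret (0.02), Dut (0.35), Ak4 (-1.19 to 0.34), Ext1 (0.38), Hs3st3b1 (-0.20 to 0.16) and Slco2b1 (0.32), and among the cardiomyocyte markers Myh6 (-0.60) and Tnnt2 (-0.22 to 6.87). Averaging all probe sets of a gene, also those under the line, ended the calls of 78 of the 388 called genes of the lists and turned the sign of 5. It left 7 nuclear receptors and 4 circadian clock genes called higher, against 11 and 7. Some of those calls ended because the difference fell under the minimum of 1. Among signalling genes this held for Flt4 (-0.87), Lifr (0.98), Ryk (-0.60), Spry2 (-0.72), Pde7a (0.83) and Pde7b (0.76). Among transcription factors it held for Esrra (0.45), Nfib (-0.87), Nfic (0.83), Per2 (0.87) and Tef (0.68). Among metabolic genes it held for Ak1 (0.87), Ak3 (0.73), Dut (-0.62), Fech (0.62), Gnpnat1 (-0.94), Psat1 (-0.85) and Tfrc (0.98). Other calls ended because the adjusted p was over 0.05. Of these Dkk2 (-2.13), Draxin (1.76), Sema3d (1.64), Pgr (1.29) and Ntrk3 (-1.20) kept a difference of over 1. Smaller were those of the signalling genes Fgfr3 (0.82), Pde1a (-0.96) and Pde8b (0.69). The same held for the factors Esr1 (0.96), Esrrg (0.56), Hand2 (-0.06), Mycn (-0.58), Nfia (0.26), Per3 (0.30) and Tbx20 (-0.01). It also held for the enzymes Ak4 (-0.26), Chst2 (-0.25), Ext1 (-0.47), Got2 (0.71) and Hs3st3b1 (-0.32).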

How the data were processed

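Biotin-labelled RNA from 3 samples each of MEF, CiCM and CM was hybridised to 1-colour arrays, 1 per sample, per the labels' protocols. In the deposited table are log2 signals for 45101 probe sets, and the submitters' processing notes name MAS5 and no version of it. The linear signals of every array had a trimmed mean of 500.003, as global scaling leaves it. Scan dates, detection calls and probe signals were not used here, and any batch that coincides with a group cannot be told apart from it.

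Probe sets with exactly 1 symbol in GEO's platform annotation (34945; 932 had several, 9160 none, 64 were controls) gave 18193 genes, each read from the probe set that was brightest on average over 9 arrays. Of these, 5634 genes whose highest group mean was under 6.58 were left out, and 12559 were tested. Where a called gene had further probe sets past that line, their signs matched in 90.8% of cases. All 9 arrays were fitted in limma 3.58.1 (R 4.3.3), 2-sided, with lmFit, eBayes and a trended variance, and p-values were adjusted by the Benjamini-Hochberg method over all tested genes. Genes were called where the adjusted p lay under 0.05 and the difference reached 1. With 3 against 3 arrays the smallest p of an exact permutation test is 0.1. Where nothing says that samples came from separate cultures, p-values measure only the spread between these arrays, whose number limits the precision. On simulated data with 200 of 12559 genes changed, the fit found 75.3% of those changed by 1.5 and 84.4% of those changed by 2. Of its calls there, 2.08% were false. On the real arrays 2987 genes, or 23.8%, were called, and the recovery and false share with so many genes changed was not tested.

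The comparison and the 33 lists of families and 13 lists of cell type markers were chosen with earlier results of these data known. Of 1517 list entries 122 had no probe set used. Named genes are the 2 highest and 2 lowest called members per list without overlap between arrays, ranked with 32 added to the linear signals, and the 12 highest and 12 lowest outside the lists. Ligand and receptor partners, isoforms and relatives were added after their values were seen. Python 3.11.15 and matplotlib 3.10.9 drew the figures.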

Additional observations from a re-analysis of the deposited data

How the results depend on the processing

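Over 22 alternatives the count of genes called higher ranged from 699 to 3043 and of those called lower from 581 to 3486, against 1451 and 1536. The counts moved by more than 1.5 times with a constant larger than 32 added to the linear signals (966 higher, 934 lower), with the filter at the 75th percentile (1001 lower), with no minimum difference (3043 and 3486) and with a minimum difference of 2 (699 and 581). The larger constant damps the differences of dim genes, the filter leaves fewer genes to test, and the minimum difference sets the count directly. Leaving out 1 array in turn gave 1340 to 1493 higher and 1426 to 1575 lower. With the replicate block the counts were 1444 and 1534, and 1 named gene, Slc6a15, lost its call. Same-numbered MEF and CiCM arrays deviated from their group means with correlations of -0.0156, 0.00204 and -0.00429, so no pairing by number was seen. Such deviations also hold array noise and cannot tell whether same-numbered samples shared an origin.

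Of 2789 alternative values for the 141 named genes, 2688 kept the call, 99 lost it and 2 were reversed. The reversed ones came from averaging probe sets, Rspo3 at 0.19 and Slco2b1 at 0.025, and the cause was not tested. That constant ended the most calls of named genes, 16. Averaging probe sets ended the calls of 78 of 388 called list members. Genes dim in the group with the lower signal, 664 of the higher and 551 of the lower calls, have no firm size. Some of them were dim in both groups and tested only through the CM arrays. Of these Tbx20 differed by -0.01 with its probe sets averaged, so the direction is not firm for all.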
